A study of Rattus norvegicus with 30 samples.

Results

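The genes described here carry glucose into the heart muscle cell and break it down to pyruvate and lactate. They were chosen by name: Slc2a1, Slc2a4, Hk1, Hk2, Pfkm, Pfkfb2, Pgk1, Pgam2, Ldha and Ldhb, 10 genes in all. The authors made a table for each of 3 ages, 8 weeks (young), 21 weeks (adult) and 78 weeks (old), and every row with one of these names was taken. Each table held 13 such rows. The tables held 18145, 18290 and 17702 rows with a gene name, which cover 14005, 14134 and 13607 names.

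Male and female rats of the inbred F344 strain were compared, with 5 rats of each sex at each age. All 30 rats were untreated and were kept on the same diet. RNA came from the whole heart, was labelled with Cy3 and was hybridised to 1-colour Agilent rat arrays, 1 rat to an array. Levels are given on a log2 scale, scaled to the 75th percentile of each array. The authors' values and those rebuilt from the scanner files differ in their zero point, so levels are not to be compared between them. In RNA from whole hearts, a lower level of a transcript in each cell and fewer cells that carry it cannot be told apart.

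Glucose crosses the membrane of the cardiac myocyte through facilitative transporters. Slc2a4 encodes GLUT4, which insulin and contraction move to the cell surface. Slc2a1 encodes GLUT1, which supplies basal uptake and is also found in endothelium. Hexokinases (Hk1, Hk2) trap the sugar as glucose 6-phosphate. Phosphofructokinase (Pfkm is its muscle form) commits it to glycolysis, and the bifunctional enzyme encoded by Pfkfb2, the heart form of its family, makes and breaks down fructose 2,6-bisphosphate, a strong activator of phosphofructokinase. Pgk1 and Pgam2 encode phosphoglycerate kinase, which makes ATP, and the muscle form of phosphoglycerate mutase. Lactate dehydrogenase is built from the Ldha and Ldhb subunits, of which the heart mainly uses the product of Ldhb. The adult heart burns mostly fatty acids, and glycolysis covers a smaller share of its energy.

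The arrays lay on 8 slides, 7 with 4 arrays and 1 with 2, and every slide held both sexes. The 8-week and 78-week rats shared 1 slide, whereas the 21-week rats were on slides of their own. Between 17223 and 24342 spots of an array were well above background, with the lowest number on a 21-week male array. All 10 cardiomyocyte markers (Myh6, Actc1, Tnnt2 and others) were well above background on all 30 arrays. The Y-linked genes Ddx3y and Eif2s3y were at the male level on the array labelled 78-week female replicate 2 and at the female level on that labelled 78-week male replicate 3. The 78-week results on sex are therefore also given without both arrays.

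The 13 rows drew on 16 probes of 60 bases, and the main row of each gene was well above background on all 30 arrays. The other row of Pfkm, Pgk1 and Ldha came from a probe designed on an expressed sequence tag, a single-pass cDNA read. That of Pgk1 was well above background on 0 of 30 arrays, and that of Ldha on 2 of 30, so no fold is given for either. The array's own annotation placed the tag probe of Ldha on chromosome 8 of rn3, whereas the main Ldha probe lies on chromosome 1. The tag probes of Pfkm (chr7:136916715-136916774) and Pgk1 (chrX:94413377-94413436) lie on the strand opposite to the main probe of the gene (chr7:136922373-136922432 and chrX:94410216-94410275), at distances of 5658 and 3161 bases. RefSeq also places Pfkm on the plus strand of chromosome 7 in GRCr8, the strand of the main probe. The tag probe of Pfkm, on the minus strand, is shown because its row carried the lowest p on sex of all 13 rows at 21 weeks:
Pfkm tag probe: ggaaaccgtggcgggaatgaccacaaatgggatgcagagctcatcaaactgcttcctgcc

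The rows of Slc2a4, Hk1 and Pfkfb2 each averaged the spots of 2 probes, of which the brighter Slc2a4 probe had 10 spots and the other 1. The dimmer Pfkfb2 probe (rn3, chr13:43650718-43650777, minus strand) lies 11140 bases from the brighter one (chr13:43639578-43639637), so the levels of this gene rest on a pair of separate places in the transcript. The dimmer probe, which was well above background on 20 of 30 arrays, has this sequence:
Pfkfb2 dimmer probe: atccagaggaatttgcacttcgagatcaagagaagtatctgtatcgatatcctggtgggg

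The dimmer Hk1 probe and the Hk2 probe come from matching stretches of the paired isozymes and are shown for how their bases differ there. Laid over each other without gaps they overlap in 48 bases and are identical at 32 of them (66.7%), with the 16 differing bases in capitals:
Hk1 dimmer probe: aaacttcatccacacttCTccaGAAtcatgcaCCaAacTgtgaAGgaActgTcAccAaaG
Hk2 probe: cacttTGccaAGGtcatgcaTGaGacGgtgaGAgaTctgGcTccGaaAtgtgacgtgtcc

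Between the sexes, none of the 10 genes passed the adjusted test at 8, 21 or 78 weeks (limma, Benjamini-Hochberg over all gene-named rows). Calls were rare over all rows too, at 0.105% of rows at 8 weeks, 0.0383% at 21 weeks and 0% at 78 weeks. At an unadjusted p under 0.05, 1 of the 10 genes passed at 8 weeks, 0 at 21 weeks and 0 at 78 weeks, against 6.29%, 16.3% and 6.02% of all rows. The sexes overlapped in the main row of every one of the 10 genes at every age, whereas 1.64%, 4.14% and 0.938% of all rows did not overlap at 8, 21 and 78 weeks. At 21 weeks the median row was 0.16 lower in females on the log2 scale, so differences at that age are also given relative to this median.

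**Figure D1:**
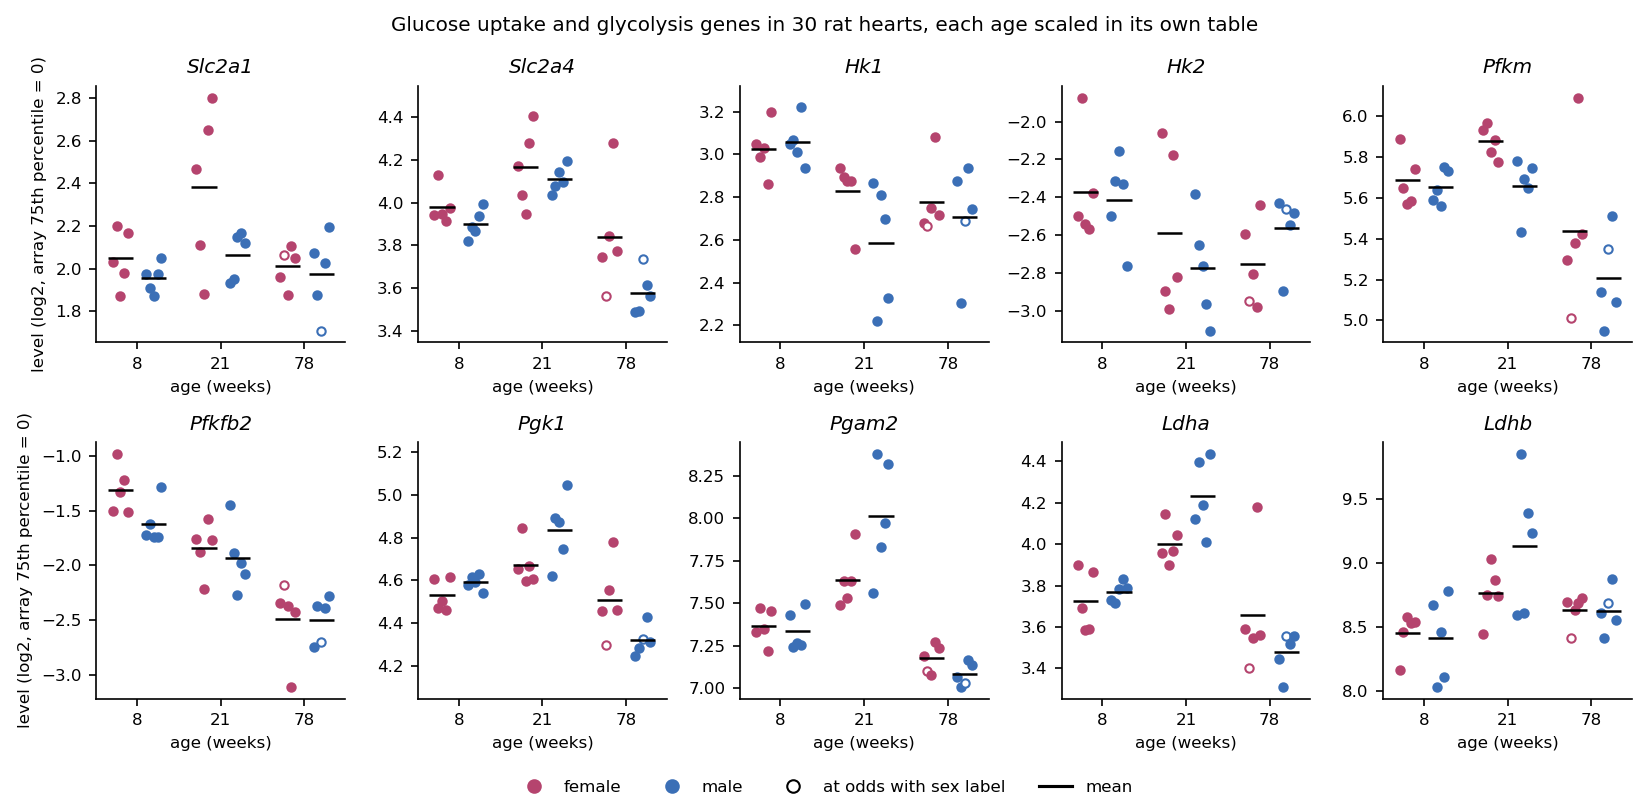
Level of each gene (log2, vertical axis) in each of 30 rats by age in weeks (horizontal axis), females in red and males in blue, with the mean of 5 rats as a line and the 2 old arrays with a doubtful sex label as open points. Each age was scaled in its own table, so sexes are to be compared within an age. The sexes overlap in every panel, and 1 old female stands apart from the other old rats in Pfkm, Ldha and Pfkfb2.

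**Figure D2:**
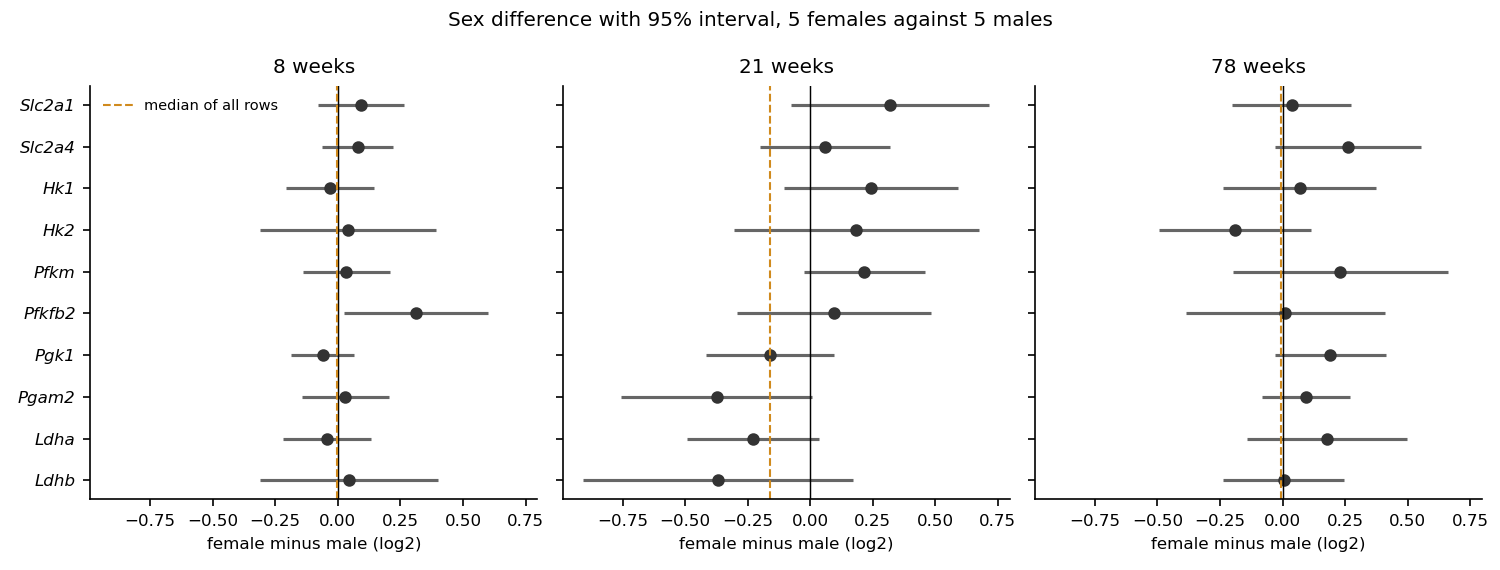
Female minus male difference (log2, horizontal axis) of the 10 genes at 3 ages, with points for the mean of 5 females minus that of 5 males, bars for the 95% interval from limma, and a dashed line for the median of all rows. The interval for Pfkfb2 at 8 weeks, from 0.02 to 0.60, is the one that leaves out 0.

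Pfkfb2 was the gene with an unadjusted p under 0.05. In the 5 young females its level was -1.51, -0.98, -1.33, -1.22 and -1.52, and in the 5 young males it was -1.72, -1.63, -1.74, -1.74 and -1.28. All 5 females lay above the male mean, and 1 male lay among the females. The difference was 0.31 ± 0.13 (SE, n = 5 per sex), or 1.24-fold higher in females, with an unadjusted p of 0.0364, an adjusted p of 0.749 by limma and an exact two-sided permutation p of 0.0476. The females were higher within the slides that held 2 rats of each sex, by 0.45 and 0.48, and lower by 0.23 on the slide with 1 rat of each. The difference was 0.10 ± 0.17 at 21 weeks (SE, n = 5 per sex) and 0.01 ± 0.18 at 78 weeks, and neither interval left out 0. Without the arrays of doubtful sex the 78-week difference was -0.12 ± 0.20.

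The glucose transporters did not pass the test at any age. Slc2a1 ran from 1.88 to 2.80 in adult females, and in adult males from 1.93 to 2.16, a difference of 0.32 ± 0.18 (SE, n = 5 per sex, adjusted p = 0.359 by limma), or 0.48 relative to the median row. The female values were wide, and the lowest female lay below all 5 males. The summed endothelial markers ran from 97.3 to 135 in adult females and from 52.2 to 104 in adult males. Of 5 endothelial markers, however, 3 had a higher mean in adult males. The part of endothelial cells in the Slc2a1 difference was not tested. In old rats Slc2a4 was 3.75, 3.56, 3.84, 4.28 and 3.77 in the females and 3.49, 3.49, 3.73, 3.62 and 3.56 in the males. The second female value and the third male value are those of the arrays whose Y-linked genes went against the label. The difference was 0.26 ± 0.13 (SE, n = 5 per sex, unadjusted p = 0.0735, adjusted p = 0.806 by limma). Without these arrays it was 0.37 ± 0.14 (n = 4 per sex), or 1.29-fold, and the sexes no longer overlapped, with an unadjusted p of 0.0282 and an adjusted p of 0.488 by limma. In that fit 0.0169% of all rows passed the adjusted test, 9.28% had an unadjusted p under 0.05 and 7.75% did not overlap. An exact two-sided permutation test gave p = 0.0286, and 4 rats against 4 can give no lower value. The highest of these females, replicate 4, had the lowest sum of erythroid markers of any old rat (15.2, against 41.5 to 61.3), and without this rat alone the difference was 0.17 in values rebuilt from the scanner files.

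The hexokinases showed no sex difference beyond the spread between rats. Hk1 ranged from 2.56 to 2.94 in adult females and from 2.22 to 2.87 in adult males, a difference of 0.24 ± 0.16 (SE, n = 5 per sex, adjusted p = 0.406 by limma). Hk2 was the dimmest main row at every age, with means of -2.37 ± 0.29 in females and -2.41 ± 0.23 in males at 8 weeks (SD, n = 5). Its 95% intervals ran from -0.31 to 0.39 at 8 weeks, from -0.31 to 0.67 at 21 weeks and from -0.50 to 0.11 at 78 weeks (-0.48 to 0.25 without the arrays of doubtful sex), which leaves room for differences of that size.

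Pfkm and its opposite-strand row leaned the same way in adult rats. The main row was 5.94, 5.97, 5.82, 5.88 and 5.78 in females and 5.78, 5.43, 5.69, 5.65 and 5.75 in males. All 5 females lay above the male mean, with 1 female inside the male range, and the difference was 0.22 ± 0.11 (SE, n = 5 per sex, unadjusted p = 0.0728, adjusted p = 0.33 by limma), or 0.38 relative to the median row. The tag row ran from -1.71 to -1.37 in females, and in males from -2.76 to -1.65. It was 1.58-fold higher in females (0.66 ± 0.21, SE, n = 5 per sex, unadjusted p = 0.0103, adjusted p = 0.261 by limma). In rebuilt values, in which each rat is known, the lowest was that of male replicate 2, the array with the fewest spots above background. For the tag probe the sex difference at 78 weeks minus that at 21 weeks was -0.66 ± 0.23 (SE, adjusted p = 0.258 by limma), and -0.54 ± 0.24 (adjusted p = 0.353) without the arrays of doubtful sex.

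Adult males had the higher mean in Pgam2, Ldha and Pgk1 of the lower steps, a direction that normexp background correction turned in all 3 genes. Pgam2 was 7.49 to 7.91 in adult females and 7.56 to 8.38 in adult males, a difference of -0.37 ± 0.17 (SE, n = 5 per sex, unadjusted p = 0.0544, adjusted p = 0.31 by limma) and of -0.21 relative to the median row. Females were lower than males by 0.23 ± 0.12 for Ldha (adjusted p = 0.34 by limma) and by 0.16 ± 0.12 for Pgk1 (adjusted p = 0.441). The median row was itself 0.16 lower in females, so Pgk1 did not differ from the typical row and Ldha differed little from it. None of these 3 genes passed the test, and the sexes overlapped in each. Ldhb did not pass either, at 8.77 ± 0.21 in adult females and 9.14 ± 0.54 in adult males (SD, n = 5), with overlap. Normexp turned this direction too. Its probe was saturated on 5 of 5 adult female and 3 of 5 adult male arrays, which limits the comparison. Ldhb means were 8.45 in females and 8.41 in males at 8 weeks, and 8.63 in each sex at 78 weeks. Without the arrays of doubtful sex the latter were 8.68 and 8.61. The adult male arrays also differed from the adult female arrays as a whole. Their 75th percentile signal ran from 39.9 to 104.8 against 82.7 to 123.1, and the summed level of the 10 cardiomyocyte markers ran from 4280 to 9460 against 3730 to 5400. The part of either in these differences was not tested. Without male replicate 2, which had the lowest 75th percentile and the highest marker sum, Pgam2 differed by -0.26 and Ldha by -0.17.

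In old rats the mean of Pgam2, Ldha and Pgk1 was higher in females, again turned by normexp background correction. Pgk1 was 4.46, 4.30, 4.56, 4.78 and 4.46 in females and 4.25, 4.29, 4.32, 4.43 and 4.31 in males, a difference of 0.19 ± 0.10 (SE, n = 5 per sex, adjusted p = 0.806 by limma). Female replicate 2, 1 of the arrays whose label was in doubt, was the female inside the male range. Without both such arrays the sexes did not overlap, as in 7.75% of all rows. The difference was then 0.24 ± 0.11 (n = 4 per sex, unadjusted p = 0.0598, adjusted p = 0.556 by limma). Of the 10 genes, 9 had a higher mean in old females, against 48.7% of all rows, but 7 did so without both arrays and 2 with normexp background correction, so the direction of the group is not settled. At 8 weeks 7 of the 10 had a higher mean in females, against 48.9% of all rows, and 4 did so with quantile normalization, and at 21 weeks 6 of 10 did, against 32.7%.

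The sex difference itself was then compared between ages. In none of the 10 genes did it change past the adjusted threshold (limma on all 30 arrays), and 0.00254%, 0% and 0.00254% of 39384 named probes did so for 21 against 8, 78 against 8 and 78 against 21 weeks. Pgk1 and Pgam2 had the lowest unadjusted limma p among the main probes, 0.0128 for each (adjusted p = 0.277). Their female minus male difference was 0.36 ± 0.13 and 0.47 ± 0.18 higher (SE) at 78 than at 21 weeks, and 0.41 ± 0.14 and 0.48 ± 0.20 higher without the arrays of doubtful sex (adjusted p = 0.251 and 0.315). Of all probes, 17.1%, 2.57% and 13.6% had an unadjusted p under 0.05 in the 3 contrasts. Leaving out any 1 of the 30 rats brought none of the 10 genes past the threshold, with a lowest adjusted p of 0.0565 for Pgam2 without adult male replicate 1.

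Between 8 and 78 weeks, Pfkfb2 was lower in old hearts at both of its probes. It had the largest difference of the 10 genes except with normexp background correction. Levels were rebuilt from the scanner files for this comparison, probe by probe, and are on a scale of their own. The ages were run in different batches and share 1 slide, so age and batch cannot be told apart. In all, 23.2% of the 39384 probes were called, 6.84% lower and 16.4% higher at 78 weeks, and the median probe was 0.12 higher. Among probes well above background on at least 10 of 20 arrays, the median difference was 0.003. Of the 10 main probes, 2 were called lower (Pfkfb2, Hk1) and 1 higher (Ldhb). With normexp the picture of the group was another one. The median probe was then 0.58 higher, 32110 probes were called, and so were all 10 genes. The estimated slide correlation was 0.637 with normexp and 0.008 without it. Relative to the normexp median, the 10 genes ran from -1.87 (Hk1) to -0.22 (Hk2), with Pfkfb2 at -1.27. Pfkfb2 was 0.69 lower, and 8 genes were as low or lower, among them Hk1 (-1.29), Pfkm (-1.23), Pgam2 (-1.16), Slc2a4 (-1.16), Ldha (-1.08) and Pgk1 (-1.04), with adjusted p-values of 0.00445 or, for Ldha, 0.00471.

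The brighter Pfkfb2 probe lay between 0.42 and 1.32 in the 10 young rats, with a median of 0.66, and between -1.38 and 0.12 in the 10 old rats, with a median of -0.22. All 10 old rats lay below all 10 young rats, a separation seen in 2% of probes. The difference was -1.05 ± 0.16 (SE, n = 10 per age, adjusted p = 0.000124 by limma), or 2.07-fold lower. It was -1.17 relative to the median of all probes, dim ones included. Of the 39384 probes, 138 (0.35%) had a more negative difference. The dimmer probe, whose sequence is given above, was 0.79 ± 0.11 lower (adjusted p = 9.69e-05), with 9 of the 10 old rats below every young rat. It was well above background on 5 of 5 young female and 5 of 5 young male arrays, but on 3 of 5 old female and 2 of 5 old male arrays, so the size of its difference is uncertain and no fold is given.

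Pfkfb2 was lower in old rats of either sex. In the 5 young females the brighter probe was 0.61, 1.32, 0.84, 0.89 and 0.48, and in the 5 old females it was -0.20, 0.12, -0.24, -1.38 and -0.18. In the 5 young males it was 0.70, 0.56, 0.42, 0.46 and 0.76, and in the 5 old males -0.33, -0.12, -0.66, -0.21 and -0.28. Each old rat thus lay below each young rat of its own sex. In females alone the difference was -1.20 (adjusted p = 0.0574 by limma) and in males alone -0.89 (adjusted p = 0.00296). Without the array of doubtful sex they were -1.36 (adjusted p = 0.0374) and -0.80 (adjusted p = 0.0046). The difference of the sex difference between these ages was -0.31 ± 0.31 (SE, adjusted p = 1), or -0.52 ± 0.32 (adjusted p = 0.999) without these arrays, so a difference in the fall between sexes was not shown. The adult median, 0.20, lay between those of the other ages, but the adult range, -0.19 to 0.86, overlapped both. Adult rats were on slides of their own and were not part of this test.

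On the slide that held both ages, the old female was 0.68 below the young female and the old male 1.08 below the young male at the brighter probe. With each slide as a fixed term, so that only these 4 arrays informed the age difference, Pfkfb2 was 0.88 lower, with an unadjusted p of 0.0288 and an adjusted p of 0.437 by limma. In that fit 197 probes were called in all. Old female replicate 4 had the lowest value, and without it the difference was -0.92 (adjusted p = 5.58e-06). Over all settings that were tried it ran from -1.36 to -0.69.

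**Figure D3:**
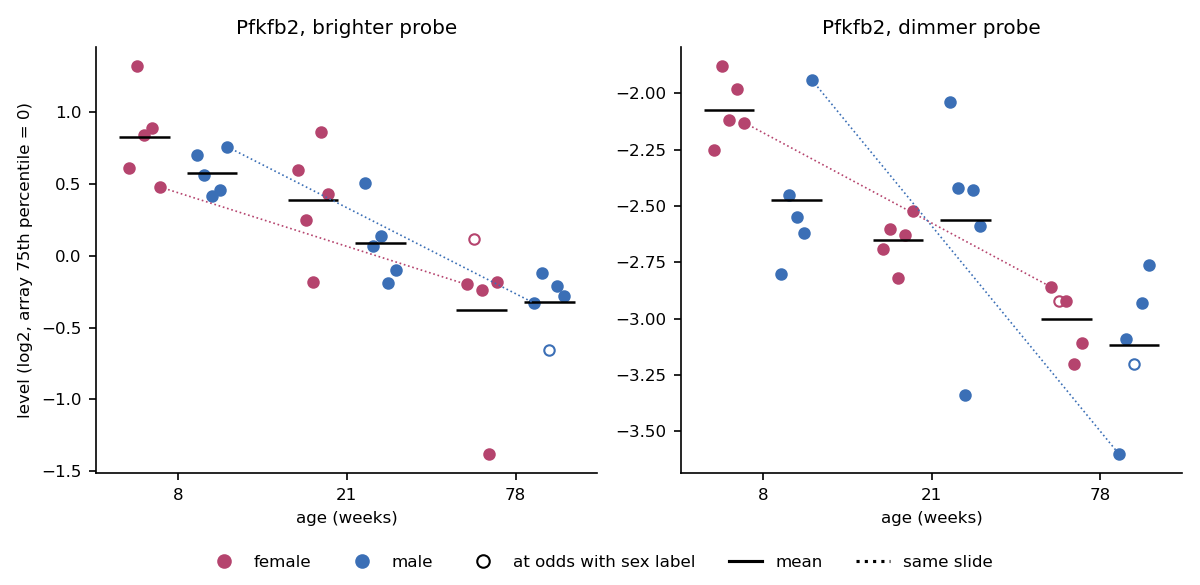
Level of the brighter (left) and dimmer (right) Pfkfb2 probe (log2, rebuilt values, vertical axis) in each rat at 8, 21 and 78 weeks (horizontal axis), females in red, males in blue, lines for means of 5 rats and dotted lines joining rats of 1 sex on the shared slide. At the brighter probe the old rats lie between -1.38 and 0.12 and the young rats between 0.42 and 1.32.

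Hk1 was the other gene called lower. Its brighter probe ranged from 5.26 to 5.54 in young rats (median 5.37) and from 4.82 to 5.47 in old rats (median 5.12), so the ages overlapped. It was 0.24 ± 0.07 lower (SE, n = 10 per age, adjusted p = 0.0244 by limma), or 1.18-fold, and 8 of the 10 old rats lay below every young rat. The call was lost when the pair of old arrays with a doubtful sex label was left out (-0.22, adjusted p = 0.0554), in either sex alone and with slide as a fixed term, where the difference itself was larger (-0.32, adjusted p = 0.509). The dimmer Hk1 probe was 0.15 ± 0.11 lower (adjusted p = 0.363) and Hk2 0.16 ± 0.11 lower (adjusted p = 0.301), and neither passed the test.

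Pfkm and Slc2a4 did not pass the test over all rats, but passed it without 1 rat and, as given above, with normexp. Pfkm ranged from 6.24 to 6.58 in young rats (median 6.34) and from 5.72 to 6.91 in old rats (median 6.11), a difference of -0.24 ± 0.11 (SE, n = 10 per age, adjusted p = 0.118 by limma). Slc2a4 ranged from 5.02 to 5.34 in young rats (median 5.13) and from 4.75 to 5.62 in old rats (median 4.98), a difference of -0.13 ± 0.08 (adjusted p = 0.258). Without old female replicate 4, Pfkm was 0.33 lower (adjusted p = 0.00759) and Slc2a4 0.19 lower (adjusted p = 0.0211). That rat held the highest old value of Pfkm, Slc2a4, Hk1, Pgk1, Pgam2 and Ldha and the lowest of Pfkfb2. It also had the lowest old sums of erythroid (15.2), fibroblast (228) and endothelial (111) markers, whose part was not tested.

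The remaining genes differed less between 8 and 78 weeks. The differences were 0.09 ± 0.07 for Slc2a1, -0.04 ± 0.07 for Pgk1, -0.12 ± 0.06 for Pgam2 and -0.08 ± 0.09 for Ldha (SE, n = 10 per age), and none passed the test, although with normexp Pgk1, Pgam2 and Ldha passed at the values above and Slc2a1 at -0.69. Ldhb, the brightest of the 10, was called 0.30 ± 0.10 higher (adjusted p = 0.0365 by limma). Its probe was saturated on 5 of 5 young female, 3 of 5 young male, 4 of 5 old female and 5 of 5 old male arrays, so its signal there is only a lower bound and no fold is given. The call held in 11 of the 20 fits that left out 1 rat, and was lost with quantile normalization (0.01, adjusted p = 0.842) and with the raw median signal (0.22, adjusted p = 0.0546). With normexp Ldhb was instead called lower (-0.73, adjusted p = 0.0247 by limma), so its direction depends on the background correction. An unadjusted p under 0.05 was reached by 4 of the 10 main probes, against 37.1% of all probes. In all, 8 of the 10 main probes were lower at 78 weeks, against 34.5% of all probes. That share includes dim probes, whereas the 10 main probes were well above background on every array. Among probes well above background on at least 10 of 20 arrays the median difference was 0.003, against 0.12 over all probes. The fibroblast marker sum moved over the same ages, from 456 to 573 in young rats and from 228 to 387 in old rats. The collagens were lower at 78 weeks (Col3a1 -1.49, Col1a1 -0.67, Col1a2 -0.21), but Pdgfra (0.02) and Dcn (0.09) were not. Cardiomyocyte marker sums were 2760 to 4250 in young and 3610 to 5110 in old rats. Their part in these differences was not tested.

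**Figure D4:**
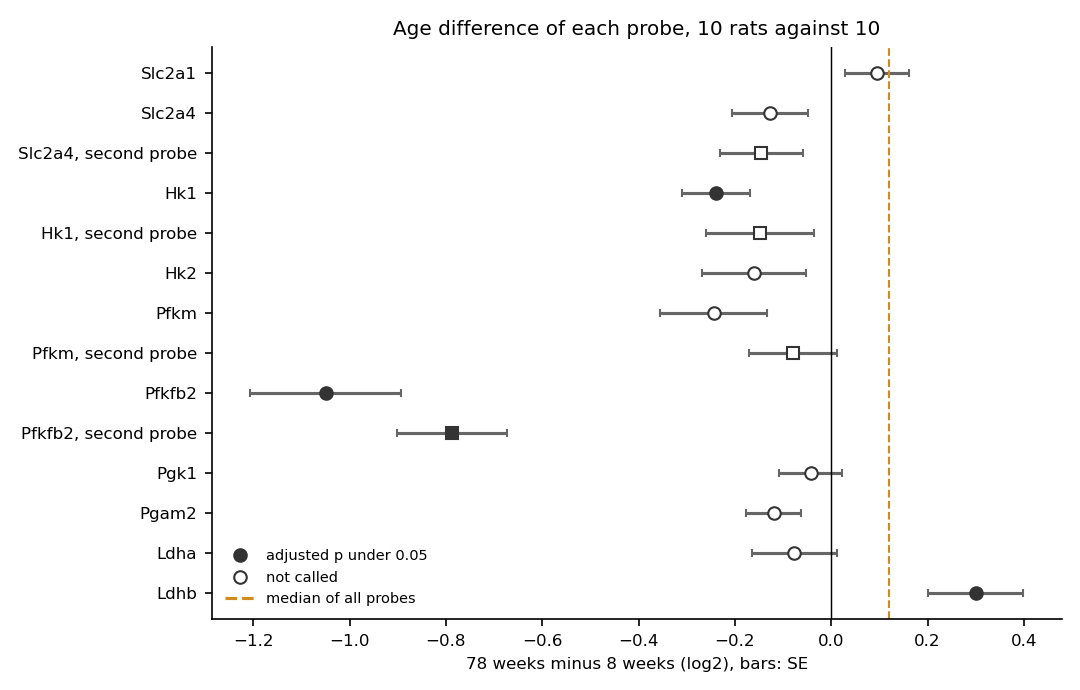
Difference between 78 and 8 weeks (log2, horizontal axis) for each probe of the 10 genes that was well above background on at least 20 arrays, with SE bars from limma, filled symbols for an adjusted p under 0.05, circles for main probes and squares for other probes, and a dashed line at the median of all probes. Both Pfkfb2 probes lie at -0.79 or below, and all other probes lie between -0.24 and 0.30, without normexp correction.

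Other genes of the pathway were counted from lists of glucose and lactate transport, upper and lower glycolysis, glycogen metabolism and upstream regulators. Of 55 such genes measured, 12 were called higher and 4 lower at 78 weeks, against 16.4% and 6.84% of all probes. Without the arrays of doubtful sex these were 10 and 3, and with normexp 20 and 17, where 65.7% and 15.9% of all probes were called. Of the 12 higher, Slc2a2, Pfkfb3 and Ldhc were well above background on at most 1 of 20 arrays. Pfkfb1, which encodes the isozyme best known from liver and skeletal muscle, ranged from -2.80 to 0.87 in young rats (median -1.50) and from -0.29 to 2.53 in old rats (median 0.96). It was 4.87-fold higher in old hearts (2.28 ± 0.46, SE, n = 10 per age, adjusted p = 0.00198 by limma), and the ages overlapped.

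Slc2a5, a fructose transporter, was 3.73-fold higher in old hearts (1.90 ± 0.23, SE, n = 10 per age, adjusted p = 1.24e-05 by limma) and its ages did not overlap, with -4.29 to -2.70 in young rats, of which 7 of 10 were well above background, and -2.29 to -0.70 in old rats. Fbp1, which encodes fructose-1,6-bisphosphatase and acts against phosphofructokinase, was 2.08-fold higher without overlap (adjusted p = 8.66e-06). With normexp the median probe was 0.58 higher, Slc2a5 0.85 higher (adjusted p = 0.00164 by limma) and Fbp1 0.49 higher (adjusted p = 0.00672). Fbp1 was thus called there but lay below the median probe. Txnip, an inhibitor of glucose uptake, was 1.89-fold higher (0.92 ± 0.19, adjusted p = 0.00223), but did not pass with normexp (0.21, adjusted p = 0.592). Among the 4 called lower were Hif1a, a hypoxia-responsive transcription factor that drives many glycolytic genes (-0.25 ± 0.05, adjusted p = 0.00234), Ppargc1a, a coactivator of mitochondrial biogenesis (-0.41 ± 0.09, adjusted p = 0.00312), Pfkp, the platelet form of phosphofructokinase (-0.49 ± 0.14, adjusted p = 0.0218), and Phkg1, the muscle catalytic subunit of phosphorylase kinase (-0.64 ± 0.22, adjusted p = 0.044). Phkg1 lost its call without the arrays of doubtful sex (-0.60, adjusted p = 0.0619) and changed sign with normexp (0.22), with which Ppargc1a did not pass either (-0.28, adjusted p = 0.0589). Adipocyte marker sums ran from 13.4 to 51.5 in young and from 25.7 to 113 in old rats, and their part in these differences was not tested.

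For sex, 0 of the listed pathway genes passed the adjusted test at any age. At an unadjusted p under 0.05, 5 of 62 passed at 8 weeks, 11 of 62 at 21 weeks and 5 of 61 at 78 weeks, against 6.29%, 16.3% and 6.02% of all rows. Without the arrays of doubtful sex 8 of 61 passed at 78 weeks, against 9.28%. The lowest p at 8 weeks was that of Txnip, at 1.86, 1.38, 1.93, 1.27 and 1.51 in females and 0.35, 0.69, 0.68, 0.95 and 0.92 in males. The young sexes did not overlap in this gene, which holds for 1.64% of all rows, and females were 1.83-fold higher (0.87 ± 0.16, SE, n = 5 per sex, adjusted p = 0.117 by limma). At 21 weeks the sexes did not overlap either (1.41-fold, adjusted p = 0.262), as in 4.14% of all rows. At 78 weeks the female mean was 1.89 and the male mean 2.05, with overlap (-0.17 ± 0.23, adjusted p = 0.891), and without the arrays of doubtful sex the difference was -0.005. The other, dimmer row of Txnip overlapped at both ages, with differences of 0.17 and -0.09. The lowest p at 21 weeks was that of Irs2, an adaptor of the insulin receptor, with a mean of -0.39 in females and -1.31 in males (0.93 ± 0.17, SE, n = 5 per sex, 1.90-fold, no overlap, adjusted p = 0.129 by limma). Its difference was 0.14 ± 0.09 at 8 weeks and 0.41 ± 0.20 at 78 weeks, both with overlap, and 0.69 ± 0.12 (adjusted p = 0.216) at 78 weeks without the arrays of doubtful sex.

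The paired isoforms were then set against each other within each rat. The difference between a pair of rows is not a ratio of transcripts, since probes respond differently, and only its change between groups can be read. Slc2a4 minus Slc2a1 was 1.79 ± 0.20 in adult females and 2.05 ± 0.08 in adult males (SD, n = 5), and 1.83 ± 0.25 in old females and 1.60 ± 0.26 in old males. The sexes overlapped at each age. Hk2 minus Hk1 differed between the sexes by 0.07, -0.06 and -0.26 at 8, 21 and 78 weeks, and Ldhb minus Ldha by 0.09, -0.14 and -0.17, all with overlap. Without the arrays of doubtful sex, and in rebuilt values, the 78-week differences were 0.41, -0.21 and -0.19 for the 3 pairs. These are descriptions without a test, and the saturation of the Ldhb probe limits the last pair.

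**Figure D5:**
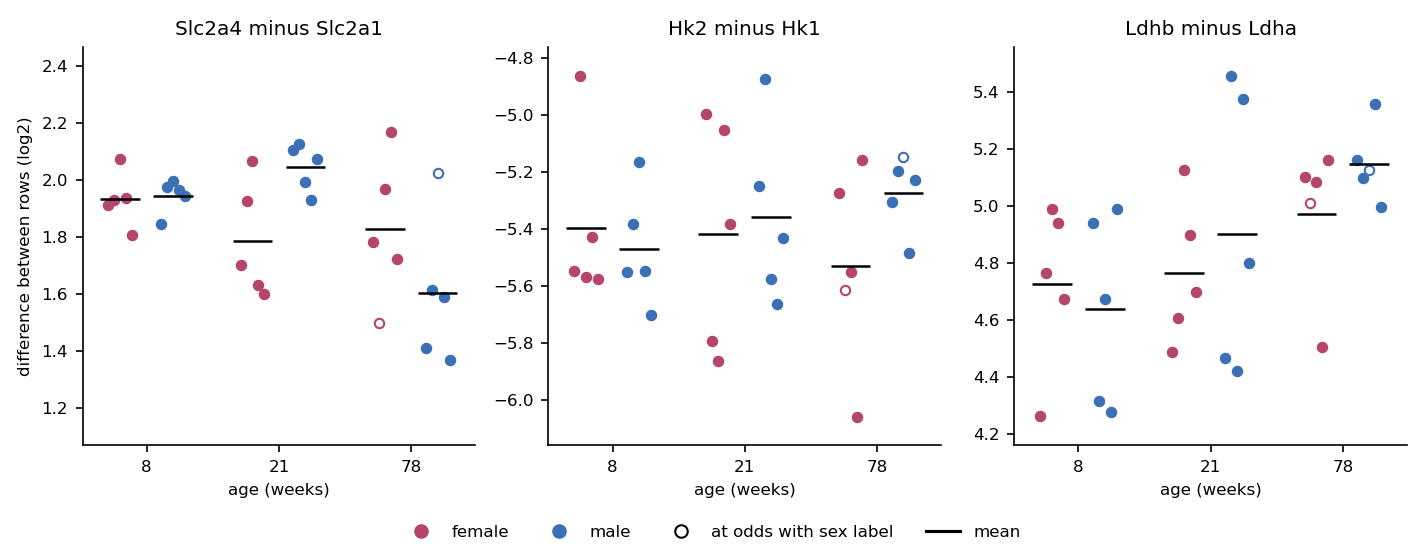
Difference between the rows of the paired isoforms in each rat (log2, vertical axis) by age in weeks (horizontal axis), females in red, males in blue, lines for means of 5 rats and open points for the 2 old arrays with a doubtful sex label. The sexes overlap at every age in all 3 pairs.

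For each gene, the probes whose level followed it most closely over the 30 rats, after the mean of each age was taken out, were listed among 14579 probes well above background on every array. Pfkfb2 was closest to Smc5l1_predicted (Pearson r = 0.894) and to Vegfa, a growth factor of blood vessels (r = 0.82). Pfkm was closest to the tag AW915757 (r = 0.923) and to Pygm, muscle glycogen phosphorylase (r = 0.917). Pgam2 was closest to RGD1309105_predicted (r = 0.964) and to the complex I gene Ndufa6_predicted (r = 0.943), and Ldhb to LOC257642 and to the ATP synthase gene Atp5i (r = 0.979 for each). Hk2, the dimmest of the 10, had the loosest match, to Notch4 (r = 0.676). The points share arrays and their scaling, so these values are a description and carry no test.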

How the data were processed

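Total RNA of 30 whole hearts was measured on 1-colour Agilent arrays read with Feature Extraction 9.5.1.1 (per the file headers). The authors deposited scanner intensity values for each array and a table of linear signal values for each age, scaled to each array's 75th percentile. A row is the geometric mean of the spots with a single gene name. After an offset for each array was taken out, 98.7% to 98.8% of rows matched values rebuilt from the scanner files. The match was within 0.002 on the log2 scale. The columns of the 21-week males name the group but not the rat. No columns of per-sample values were left unmapped.

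Sexes were compared within each age by limma 3.58.1 in R 4.3.3 on log2 table values (pseudocount 0) with Benjamini-Hochberg adjustment over all gene-named rows and a threshold of 0.05. For age, rebuilt probe values of 8 and 78 weeks (log2 intensity minus the 75th percentile) were fitted with sex as a term and slide as a random block (estimated correlation 0.008), and the sex by age contrasts were fitted on all 30 arrays. The main row of a gene was that of its brightest probe. Genes named were all 10 genes, listed pathway genes past a threshold and the 2 names most alike for each gene. The members and lists were chosen with earlier results of these data known. Scripts were tested on simulated data. Spots with outlier marks were kept, as in the tables. The 5 rats of a group limit the precision, and nothing tells separate litters. Alternatives were rebuilt values, normexp (offset 50), quantile normalization, raw median signal, filters on dim probes, row choice, other tests, slide and replicate blocks and leaving out rats. Same-numbered rats of either sex did not deviate together in all pairs (correlations from -0.12 to 0.29, with 1, 2 and 3 of 5 pairs above 0.1 at 8, 21 and 78 weeks), so replicate numbers were not taken as pairs.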

Additional observations from a re-analysis of the deposited data

Results flagged for a closer look

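Among 60 groups of 5 rats, 10 held a value whose gap to the nearest other rat took up more than 0.71 of the group's range. Chance gives this in about 1 in 20 independent groups with a normal spread. The 60 groups are 10 genes in the same rats and are not independent, so their count cannot be set against that rate. At 8 weeks these were the highest females for Slc2a4 (4.13) and Hk2 (-1.87), both female replicate 2, the lowest female for Ldhb (8.16) and the highest male for Pfkfb2 (-1.28). At 21 weeks they were the lowest female for Hk1 (2.56) and the highest female for Pgk1 (4.84), replicate 2, which also had the highest sum of skeletal muscle markers of any array (17). At 78 weeks female replicate 4 stood apart in Hk1 (3.08), Pfkfb2 (-3.11) and Ldha (4.18), and male replicate 2 in Hk2 (-2.89). Young male replicate 5, the one apart in Pfkfb2, is the male on the slide shared with old rats. Without it, the sex difference of Pfkfb2 at 8 weeks was 0.41 instead of 0.33 in rebuilt values (adjusted p = 0.463 by limma).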

How the results depend on the processing

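None of the alternatives brought a sex difference of the 10 genes past the threshold. Pfkfb2 was lower at 78 weeks under every alternative and passed the test in all but the fixed slide term (-0.88) and females alone (-1.20), and it ran from -1.10 to -0.92 when 1 rat was left out. The cause was not tested for any change below, and alternatives on single probes, on leaving out rats in the sex by age contrasts, on the isoform pairs and on the arrays of doubtful sex in each sex alone, in the pathway lists and in the sex by age contrasts of the 10 genes were chosen after seeing the data.

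The number of rows called for sex at 8 weeks was 19, and 9 with normexp, 39 among rows well above background on at least 5 of 10 arrays, 6 with slide as a block and 5 to 21 without 1 rat. At 21 weeks it was 7, and 1 with normexp, 16 with the raw median signal, 27 after the same filter, 3 by the methods' t-test and 3 to 10 without 1 rat. At 78 weeks it was 0, and 3 without the doubtful arrays and 0 to 1 without 1 rat. The number of probes called for age was 9135, and 32110 with normexp (which moved the median probe to 0.58), 5327 with quantile normalization, 197 with slide fixed, 801 in females, 1783 in males (801 and 1484 without the doubtful array), 5580 without the doubtful arrays, 5653 after the filter and 5286 to 11545 without 1 rat. For sex by age, 1, 0 and 1 probes were called for 21 against 8, 78 against 8 and 78 against 21 weeks, with 4 and 1 for the first contrasts under quantile normalization, 2 for the first without the doubtful arrays, and 0 to 93, 0 to 1 and 1 to 493 without 1 rat. With the replicate number as a block, 2 rows were called at 8 weeks, 3 at 21 weeks, and 8554 probes for age; the block changed no call of the 10 genes.

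Several sex differences of the 10 genes, none of them called, changed sign. At 8 weeks quantile normalization gave -0.011 for Pfkm, -0.014 for Pgam2 and -0.004 for Ldhb, and the first row of Ldha, not above background, gave 0.37. At 21 weeks normexp gave -0.18 for Hk2, -0.022 for Pfkfb2, 0.49 for Pgk1, 0.29 for Pgam2, 0.45 for Ldha and 0.26 for Ldhb, quantile normalization 0.10 for Ldhb, the raw median signal -0.035 for Hk2, and the dimmer probe -0.16 for Slc2a4 and -0.089 for Pfkfb2. At 78 weeks normexp gave -0.25 for Slc2a1, -0.091 for Slc2a4, -0.26 for Hk1, 0.062 for Hk2, -0.10 for Pfkm, -0.19 for Pgk1, -0.32 for Pgam2, -0.20 for Ldha and -0.37 for Ldhb. Quantile normalization gave -0.009 and the raw median signal -0.024 for Ldhb, the first row -0.006 for Pfkm and -0.21 for Ldha, the doubtful arrays left out -0.044 for Slc2a1 and -0.12 for Pfkfb2, and the brighter probe -0.058 for Pfkfb2. Without 1 rat, the ranges that crossed 0 were -0.062 to 0.024 for Hk1, -0.074 to 0.118 for Hk2, -0.004 to 0.077 for Pfkm, -0.074 to 0.006 for Ldha and -0.038 to 0.153 for Ldhb at 8 weeks, and -0.014 to 0.105 for Slc2a1, -0.016 to 0.154 for Hk1, -0.042 to 0.181 for Pfkfb2 and -0.034 to 0.095 for Ldhb at 78 weeks.

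For age, normexp gave -0.69 for Slc2a1, 0.37 for Hk2 and -0.73 for Ldhb, slide as a fixed term 0.17 for Hk2, and females alone 0.086 for Pgk1 and 0.036 for Ldha (without the doubtful array 0.151 and 0.121, and 0.054 for Slc2a4). Normexp moved the sex difference of Slc2a4 minus Slc2a1 to -0.10 at 21 weeks and that of Hk2 minus Hk1 to -0.87 at 21 and 0.32 at 78 weeks. Saturation limits what Ldhb can show, and dimness the other rows of Pgk1 and Ldha.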
